A study of Mus musculus with 12 samples.

Results

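Mitosis and spindle genes, the transcripts that carry a cell through chromosome condensation, spindle assembly, chromosome segregation and cell division, were followed in primary mouse embryonic fibroblasts (MEFs). A list of 50 such genes was taken, and 48 of them had a probe set annotated to 1 gene symbol among the 17097 genes measured. Ccnb1 and Nuf2 are not analysed here. Where a gene had several such probe sets, the brightest on average over the arrays was used. The series compared wild-type MEFs with MEFs of CBP/p300 compound conditional embryos, called dKO in the sample names, each with or without 2,2'-dipyridyl (DP). All were of C57Bl/6 x 129Sv (F1) background, stage e14.5 and passage 4. Both genotypes, controls included, received an adenovirus expressing Cre recombinase (multiplicity of infection 100) over 16 h, then 48 h in 3% oxygen and 24 h in normoxia. They were then given ethanol, the vehicle, or 100 µM DP for 3 h. There were 3 lines of each genotype, numbered 3, 4 and 5 for wild type and 1, 5 and 6 for dKO, and each gave 1 array per treatment, so that 12 arrays formed 4 groups of 3. The labels do not say how many cells of a dKO culture kept an intact allele.

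Most of these genes are transcribed in waves that peak in G2 and mitosis, held down in G1 by the DREAM complex and switched on by B-MYB and FOXM1, so their summed RNA follows how many cells are dividing. In cultured embryonic fibroblasts, which proliferate, they are a standard readout of cycling cells. CBP and p300 are paralogous lysine acetyltransferases that act as coactivators of many transcription factors, and DP is an iron chelator that stabilises hypoxia-inducible factor (HIF) and is used to mimic low oxygen. In bulk RNA, fewer cells in mitosis and less of a transcript per cell cannot be told apart.

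Values are log2 summaries of a probe set, changes are differences of log2 values with the moderated SE after ±, and a gene passed where limma's adjusted p over all 17097 genes lay under 0.05. Precision is limited by the small number of arrays. All 48 genes lay above the 95th percentile of the blank controls (3.28 to 3.53) on each of the 12 arrays, with means from 4.17 for Kif23 to 10.62 for Pttg1, levels that rank no gene against another. Crebbp, the gene for CBP, differed between dKO and wild type by -0.85 ± 0.16 in ethanol (adjusted p = 0.000992), though the labels do not place its probe set inside or outside the deleted part. Xist, the RNA of the inactive X chromosome, lay between 10.28 and 10.75 on wild-type arrays and between 3.94 and 5.32 on dKO arrays, and the Y-linked Eif2s3y went the other way, so that genotype and sex of the lines cannot be told apart. Of 12 fibroblast markers all were lower in dKO in both treatments (mean level 10.23 to 10.43 on wild-type arrays and 8.07 to 8.65 on dKO arrays), and 11 lay above the blank controls in every group. Of the other cell types, 0 of 5 endothelial markers lay above the blank controls in every group, 3 of 6 of macrophages (not Ptprc or Adgre1), 1 of 4 of muscle (not Myod1, Myog or Myf5), 3 of 4 neural (not Sox2), 1 of 2 erythroid (not Alas2) and 5 of 6 epithelial (not Cdh1). Of the epithelial markers, with a mean level of 5.17 to 5.63 on wild-type and 4.24 to 4.79 on dKO arrays, 5 were lower in dKO in ethanol and 3 under DP, and 1 rose with DP in each genotype. Of the macrophage markers, with mean levels of 4.05 to 4.78 on wild-type and 4.33 to 4.59 on dKO arrays, 2 were higher and 2 lower in dKO in ethanol, and 2 higher and 3 lower under DP. Neural markers had mean levels of 4.72 to 4.94 on wild-type and 3.54 to 3.99 on dKO arrays. Among them 1 was lower in dKO in ethanol and 2 under DP. The part of all these markers in the results was not tested. The beta-actin 3' minus 5' probe set difference, a sign of RNA degradation, was higher under DP and in dKO: 0.23 to 0.25 (ethanol) and 0.28 to 0.38 (DP) on wild-type arrays, and 0.40 to 0.45 (ethanol) and 0.48 to 0.60 (DP) on dKO arrays. The same difference of Gapdh was -0.03 to 0.15 (ethanol) and 0.04 to 0.17 (DP) on wild-type arrays, and 0.19 to 0.21 (ethanol) and 0.10 to 0.19 (DP) on dKO arrays, so that it was not higher under DP in dKO. The part of RNA quality in the results was not tested. Nothing in the labels says that the lines came from separate embryos, so p-values measure the spread between these lines.

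Line 5 of the wild type and line 1 of the dKO each gave an ethanol array unlike the others of its group, and the mitosis genes were spread widely on both. Against the other ethanol arrays of the same genotype, 18 of the 48 genes were at least 0.25 lower on both arrays (37.5%, against 11.5% of all genes). A further 13 were at least 0.25 higher on both (27.1%, against 12% of all genes). The median SD within a group was 0.24 and 0.27 over the 48 genes in wild-type and dKO ethanol arrays, and 0.10 and 0.15 in the DP arrays. Over all genes it was 0.16 and 0.16 in ethanol, and 0.10 and 0.11 under DP. Results that rest on these arrays are therefore also given without them, and their pattern is described after the comparisons.

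**Figure D1:**
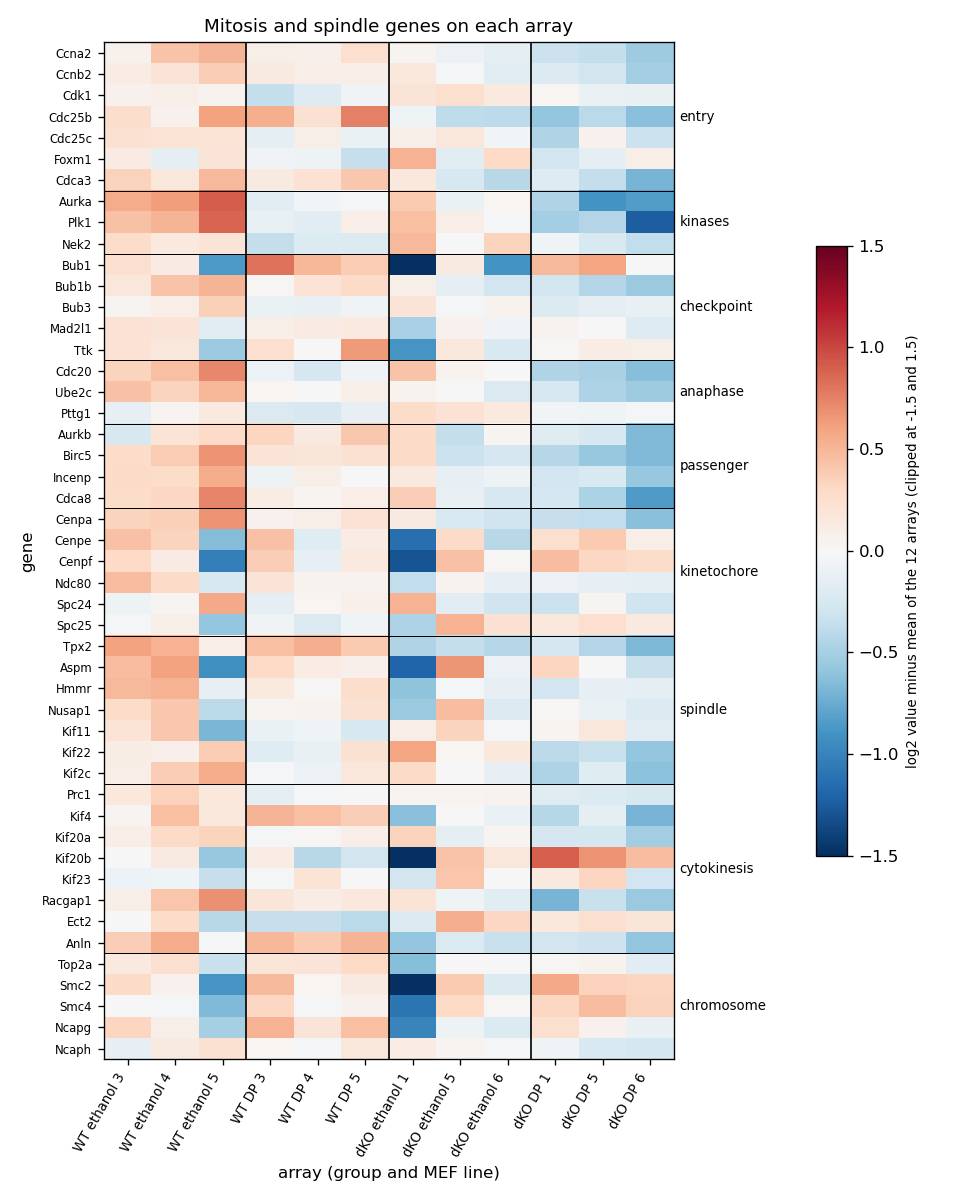
Log2 value of each of the 48 measured genes on each of the 12 arrays, minus the gene's mean over the arrays. Genes are in order of their role and columns are the arrays of the 4 groups; the third wild-type ethanol column and the first dKO ethanol column hold the deep blue cells of Aspm, Cenpf and Smc2.

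The start regions of 5 genes are shown, the 3 genes that passed a DP test (Aurka, Plk1 and Cdc20), Cenpf, which was among the lowest on both arrays that stand apart, and Birc5, which holds neither motif searched. They run from 250 bases before to 50 bases after the annotated start, 5′ to 3′ on the gene's strand, from RefSeq on GRCm38.p6: Aurka at chr2:172370521-172370820 (minus strand), Plk1 at chr7:122159185-122159484 (plus), Cdc20 at chr4:118437294-118437593 (minus), Cenpf at chr1:189688037-189688336 (minus) and Birc5 at chr11:117848987-117849286 (plus). Capitals mark TTTGAA, the core of the cell cycle genes homology region to which DREAM and B-MYB complexes bind, and CCAAT, the box bound by NF-Y, searched on both strands (TTCAAA and ATTGG on the other strand).
Aurka: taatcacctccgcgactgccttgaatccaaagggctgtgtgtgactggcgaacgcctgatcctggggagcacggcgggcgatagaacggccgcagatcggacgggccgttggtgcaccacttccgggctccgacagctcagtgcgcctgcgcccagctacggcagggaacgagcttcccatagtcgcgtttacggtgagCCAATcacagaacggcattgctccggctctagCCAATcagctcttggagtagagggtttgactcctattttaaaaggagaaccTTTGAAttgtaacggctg
Plk1: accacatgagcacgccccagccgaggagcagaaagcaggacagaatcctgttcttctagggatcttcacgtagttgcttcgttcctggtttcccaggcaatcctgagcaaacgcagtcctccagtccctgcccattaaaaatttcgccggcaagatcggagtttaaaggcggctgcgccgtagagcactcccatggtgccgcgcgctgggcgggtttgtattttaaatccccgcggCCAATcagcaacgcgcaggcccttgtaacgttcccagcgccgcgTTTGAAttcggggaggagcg
Cdc20: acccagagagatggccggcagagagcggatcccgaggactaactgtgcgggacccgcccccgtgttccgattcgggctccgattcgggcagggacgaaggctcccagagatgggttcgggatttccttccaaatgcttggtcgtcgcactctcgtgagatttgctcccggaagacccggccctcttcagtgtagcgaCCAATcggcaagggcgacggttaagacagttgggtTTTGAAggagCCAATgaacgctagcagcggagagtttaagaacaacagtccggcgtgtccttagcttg
Cenpf: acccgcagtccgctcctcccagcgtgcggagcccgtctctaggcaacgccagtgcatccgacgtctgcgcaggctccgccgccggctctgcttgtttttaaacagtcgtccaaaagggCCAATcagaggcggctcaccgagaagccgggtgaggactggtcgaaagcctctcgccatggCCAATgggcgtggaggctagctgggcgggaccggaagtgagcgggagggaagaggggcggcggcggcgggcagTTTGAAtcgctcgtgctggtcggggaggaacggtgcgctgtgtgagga
Birc5: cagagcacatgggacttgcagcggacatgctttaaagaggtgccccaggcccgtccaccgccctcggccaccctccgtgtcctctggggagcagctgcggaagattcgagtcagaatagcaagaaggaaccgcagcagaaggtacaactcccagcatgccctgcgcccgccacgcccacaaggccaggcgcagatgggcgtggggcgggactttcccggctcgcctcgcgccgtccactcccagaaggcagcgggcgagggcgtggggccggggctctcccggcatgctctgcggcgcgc
Start regions were found for 39 of the 48 genes. TTTGAA was present in 30 of them (76.9%), against 18.1% of 27025 start regions of the same length and 13.3% of the 13605 that belong to genes on the array. In 29 of the 39 genes (74.4%) it lay within 50 bases of the start, against 3.34% of genes on the array. CCAAT was present in 30 (76.9%, against 38.4% of genes on the array), at least 2 matches of it in 20 (51.3%, against 13.5%), and both motifs in 26 (66.7%, against 5.33%). ACGTG, the core of the element bound by HIF, was present in 11 (28.2%, against 23.2%). A match is a run of letters and no measured binding.

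DP was followed by lower RNA of a few spindle regulators in both genotypes. In wild-type cells Aurka and Cdc20 fell, 2 of 48 genes, and no gene rose, where 4.73% of all genes passed, 1.67% lower and 3.05% higher. In dKO cells Aurka, Cdc20 and Plk1 fell, 3 of 48, and no gene rose, where 1.5% of all genes passed, 0.491% lower and 1.01% higher. The 48 genes had a median change of -0.13 in wild type (range -0.77 to 0.73, all genes -0.03) and of -0.24 in dKO (range -0.90 to 1.12, all genes -0.05). At an unadjusted p under 0.05, 11 genes were lower and none higher in wild type, and 21 were lower and 3 higher in dKO (Bub1, Kif20b and Smc4). Without the 2 arrays that stand apart, Nek2 and Ect2 joined Aurka and Cdc20 in wild type (4 of 48, with 6.21% of all genes), and Plk1 no longer passed in dKO (2 of 48, with 1.66% of all genes). Without the wild-type ethanol array of line 5 or the DP array of wild-type line 4 only Aurka passed in wild type (1 of 48, against 4.73% of all genes in the full set of arrays and fewer in both of these), and 4 passed when dKO line 1 lacked its ethanol array (5.91%). In dKO the count was 1 without the ethanol array of line 1 (1.13% of all genes), its DP array (0.895%) or the DP array of line 5 (1.01%). It was 5 without the ethanol array of line 5 (1.71%), with Bub1 then higher. Leaving out the dKO DP array of line 6 ended all 3 dKO calls (0.936% of all genes passed). In a fit of the dKO arrays alone none passed (0.831% of all genes), with changes of the same size. Of all genes that passed in dKO 67.2% were higher, against 82.3% after cyclic loess and 80.6% after median centring, and no mitosis gene was higher under either.

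Counted by line, 30, 40 and 25 of the 48 genes were lower with DP in wild-type lines 3, 4 and 5 (62.5%, 83.3% and 52.1%, against 53.3%, 55.5% and 55.4% of all genes). In dKO lines 1, 5 and 6 there were 28, 39 and 38 (58.3%, 81.2% and 79.2%, against 67.1%, 51.0% and 55.4% of all genes). In wild-type line 5 and dKO line 1, whose ethanol arrays stand apart, the share was thus below that of all genes. In all 6 lines 18 genes were lower (37.5%, against 12.2% of all genes) and 3 were higher (against 5.59%), namely Bub1, Ncapg and Smc4. The 18 were Aurka, Plk1, Nek2, Cdk1, Cdc25c, Bub1b, Bub3, Cdc20, Ube2c, Pttg1, Birc5, Incenp, Cdca8, Cenpa, Kif22, Kif2c, Prc1 and Kif20a. Of these, Aurka, Plk1, Cdc20, Birc5, Incenp, Cdca8, Cenpa, Kif22 and Kif2c were at least 0.25 higher on both ethanol arrays that stand apart. Bub1, Ncapg and Smc4 were at least 0.25 lower on both. The size of these changes in wild-type line 5 and dKO line 1 therefore depends on those arrays. For Kif22 in wild-type line 5 the sign does too. It was 6.77 there under DP, against 6.65 and 6.61 in ethanol in wild-type lines 3 and 4. The change of Smc4 in wild-type line 4 rounded to 0.0. The 3 DP arrays all lay below the 3 ethanol arrays for 15 genes in wild type (13.6% of all genes) and for 21 in dKO (14.4%). They all lay above for Bub1 and Kif23 in wild type (8.97% of all genes) and for Kif20b and Smc4 in dKO (6.32%).

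**Figure D2:**
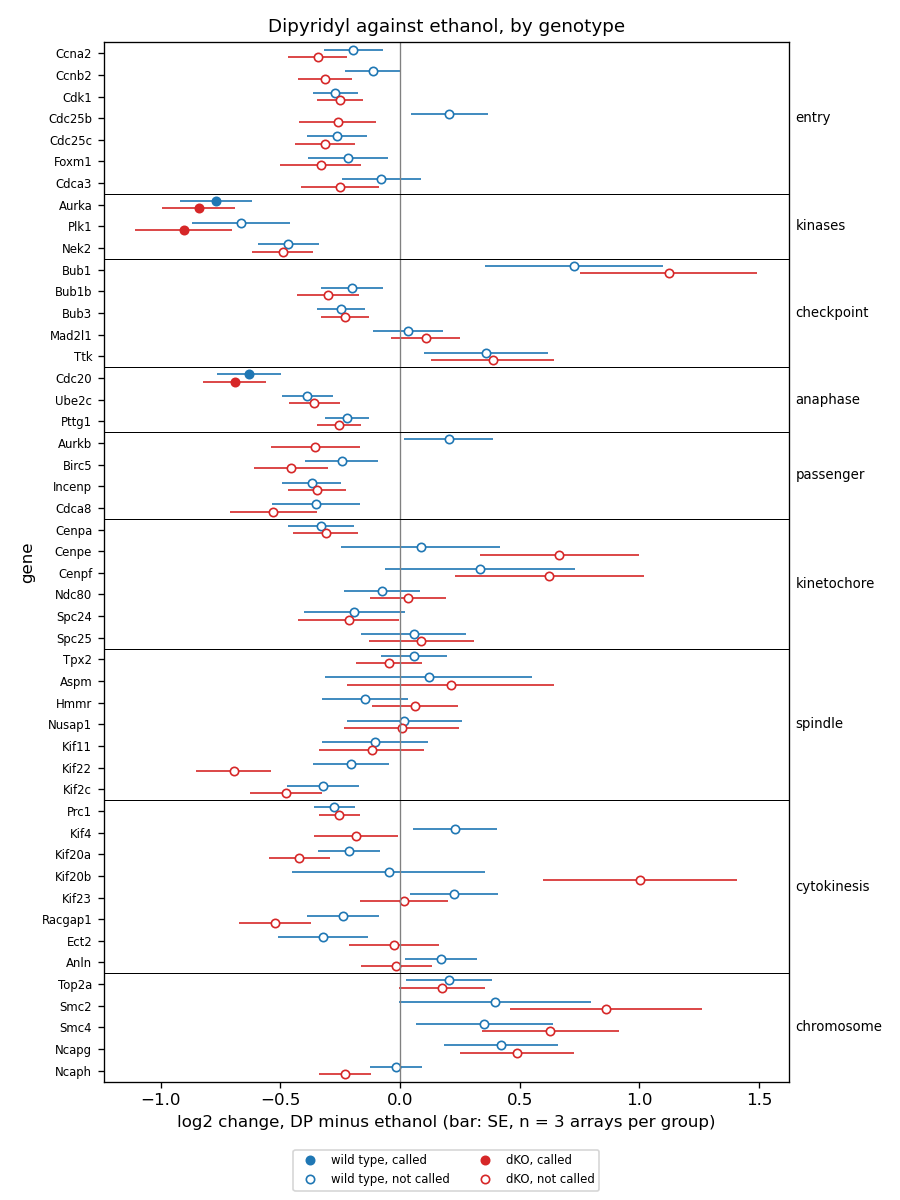
Change with DP (log2, DP minus ethanol) of the 48 genes in wild-type (blue) and dKO cells (red), by role; bars are the SE from the fit, with 3 arrays per group, and filled points passed at an adjusted p under 0.05. The filled points are Aurka and Cdc20 in both genotypes and Plk1 in dKO, at -0.63 or lower, while Bub1, Smc2, Smc4 and Ncapg lie to the right of 0 with wide bars.

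Where mitosis genes differed by genotype, the dKO cells had the lower level. In ethanol 12 of 48 passed and all 12 were lower, where 33.6% of all genes passed, 14.1% lower and 19.5% higher. Under DP 21 of 48 passed, 20 lower and only Ect2 higher, where 35.4% of all genes passed, 16.9% lower and 18.5% higher. The median difference over the 48 genes was -0.26 in ethanol (range -0.82 to 0.27) and -0.25 under DP (range -1.05 to 0.87), and over all genes it was -0.01 in both. The values of the 3 dKO arrays all lay below those of the 3 wild-type arrays for 13 genes in ethanol (18.8% of all genes) and for 28 under DP (25.3%). They all lay above for 1 gene, Cdk1, in ethanol (21.2% of all genes) and for 5 under DP (28.4%), namely Pttg1, Spc25, Kif20b, Ect2 and Smc4. The genotype comparisons share their arrays with the DP comparisons, and the beta-actin difference, the fibroblast markers and the sex-linked genes moved with genotype as given above; their part was not tested.

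The genotype counts depended on the arrays and the scaling used. Without the 2 arrays that stand apart 15 of the 48 genes passed in ethanol, 14 lower and Spc25 higher (37.2% of all genes, 15.5% lower). Under DP 27 passed, 24 lower and Ect2, Kif20b and Spc25 higher (44.8% of all genes, 20.5% lower). In ethanol the count was 6 without the dKO array of line 6 (27.6% of all genes), 8 without the wild-type array of line 5 (32.2%) and 7 in a fit of the ethanol arrays alone (25.7%). It was 22 after cyclic loess, all lower (31.9% of all genes, 17.2% lower), a scaling under which the share of all called genes that were higher went from 58.1% to 46.2%. Under DP 13 passed when wild-type line 5 lacked its DP array (29.3% of all genes), and 13 when dKO line 6 did (29.3%).

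**Figure D3:**
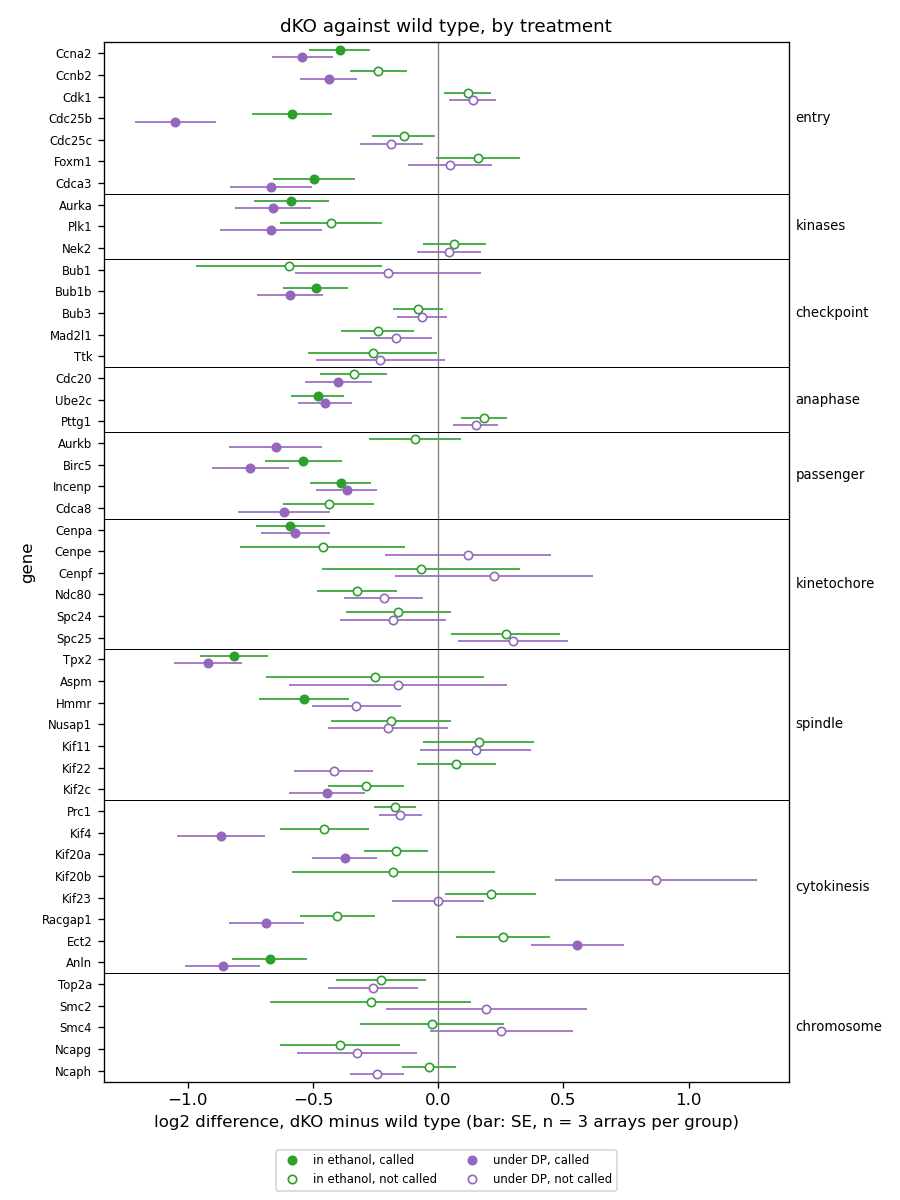
Difference between dKO and wild-type cells (log2, dKO minus wild type) of the 48 genes in ethanol (green) and under DP (purple), by role; bars are the SE from the fit, with 3 arrays per group, and filled points passed at an adjusted p under 0.05. Filled points lie left of 0, from Tpx2 and Cdc25b at the far left, except that of Ect2 under DP at 0.56.

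The DP responses themselves were compared between the genotypes, and 0 of 48 genes passed (0.562% of all genes passed, 0.0468% with a positive and 0.515% with a negative difference). At an unadjusted p under 0.05, Kif22 was the only one, its change with DP being lower in dKO (difference -0.49 ± 0.22, limma adjusted p = 0.825). Another probe set of Kif22 gave a difference of -0.17 ± 0.32. Cdc25b was the only gene that was higher with DP in all lines of one genotype and lower in all lines of the other. Its changes were 0.28, 0.18 and 0.16 in wild-type lines 3, 4 and 5 and -0.51, -0.03 and -0.24 in dKO lines 1, 5 and 6, a difference of -0.47 ± 0.23 (adjusted p = 0.877). A p above the threshold does not show that the genotypes respond alike.

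Mitotic kinases of the spindle and centrosome held the largest falls with DP. Aurka encodes Aurora A, the kinase that matures centrosomes and builds the spindle. In wild-type lines 3, 4 and 5 it was 7.59, 7.66 and 7.94 in ethanol and 6.87, 6.99 and 7.02 under DP. In dKO lines 1, 5 and 6 it was 7.43, 6.94 and 7.06 in ethanol and 6.58, 6.14 and 6.20 under DP. Each DP array lay below every ethanol array of its genotype, and each dKO array lay below every wild-type array of its treatment. The DP change was -0.77 ± 0.15 in wild type (adjusted p = 0.00908) and -0.84 ± 0.15 in dKO (adjusted p = 0.0125). The dKO minus wild-type difference was -0.59 ± 0.15 in ethanol (adjusted p = 0.00858) and -0.66 ± 0.15 under DP (adjusted p = 0.0041). Every call of Aurka held in every alternative and left-out array, except that in dKO the DP call ended without the DP array of line 5 (adjusted p = 0.0693) or of line 6 (0.0715) and in a fit of the dKO arrays alone (0.0855).

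Plk1, for Polo-like kinase 1, which drives mitotic entry and centrosome maturation, showed the same arrangement with wider spread. Its values were 7.08, 7.15 and 7.52 in wild-type ethanol and 6.53, 6.48 and 6.75 in wild-type DP arrays. The dKO values were 7.10, 6.74 and 6.63 (ethanol) and 6.14, 6.21 and 5.41 (DP), the last the lowest of all 12. DP and ethanol arrays did not overlap in either genotype, while the genotypes overlapped in ethanol through the dKO array of line 1. The DP change was -0.90 ± 0.20 in dKO (adjusted p = 0.0488) and -0.66 ± 0.20 in wild type (adjusted p = 0.1, and 0.0214 once MEF line was blocked). Leaving out any of 10 of the 12 arrays ended the dKO call (adjusted p from 0.0649 to 0.178), as did leaving out both arrays that stand apart (0.112), cyclic loess (0.0799) and a fit of the dKO arrays alone (0.181). Under DP Plk1 was lower in dKO (difference -0.67 ± 0.20, adjusted p = 0.0211), a call that ended without the DP array of wild-type line 5 (0.083) or the dKO DP array of line 6 (0.0869). Nek2, whose kinase splits the centrosomes, changed with DP by -0.47 ± 0.13 in wild type and -0.49 ± 0.13 in dKO (adjusted p = 0.0609 and 0.095), with no overlap in either. Between genotypes its difference was 0.07 ± 0.13 in ethanol and 0.04 ± 0.13 under DP.

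Among the 3 genes of the anaphase-promoting complex and its substrates, Cdc20 fell with DP. Cdc20 encodes the activator that turns the complex on at the start of anaphase. It was 7.97, 8.09 and 8.36 in wild-type ethanol and 7.55, 7.39 and 7.59 in wild-type DP arrays. In dKO it was 8.07, 7.69 and 7.65 in ethanol and 7.19, 7.15 and 7.0 under DP. All DP values lay below all ethanol values of both genotypes. The changes were -0.63 ± 0.13 in wild type (adjusted p = 0.0145) and -0.69 ± 0.13 in dKO (adjusted p = 0.0195), and the dKO level under DP was lower than wild type (difference -0.40 ± 0.13, adjusted p = 0.0333). The wild-type call ended without the ethanol array of line 5 (adjusted p = 0.055) or the DP array of line 4 (0.0795). The dKO call ended without the ethanol array of line 1 (0.0607), without the DP array of line 1 (0.0583), 5 (0.0666) or 6 (0.107), and in a fit of the dKO arrays alone (0.0839). The genotype call under DP ended with median centring (0.075) and without the DP array of wild-type line 3 or 5 or any dKO DP array (0.0507 to 0.116).

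Ube2c, the ubiquitin-conjugating enzyme of the complex, was lower in dKO. Its values were 9.78, 9.67 and 9.84 in wild-type ethanol and 9.37, 9.34 and 9.42 in wild-type DP arrays. The dKO arrays read 9.39, 9.34 and 9.12 in ethanol and 9.10, 8.87 and 8.80 under DP, below every wild-type array of the same treatment. The difference was -0.48 ± 0.11 in ethanol (adjusted p = 0.00326) and -0.45 ± 0.11 under DP (adjusted p = 0.0049), calls that held in every alternative and without any single array. With DP it changed by -0.39 ± 0.11 in wild type (adjusted p = 0.0633) and -0.36 ± 0.11 in dKO (adjusted p = 0.155), without overlap in either genotype. Pttg1, for securin, which restrains separase until anaphase, changed with DP by -0.22 ± 0.09 and -0.25 ± 0.09 and differed between genotypes by 0.18 ± 0.09 in ethanol and 0.15 ± 0.09 under DP, none of which passed.

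**Figure D4:**
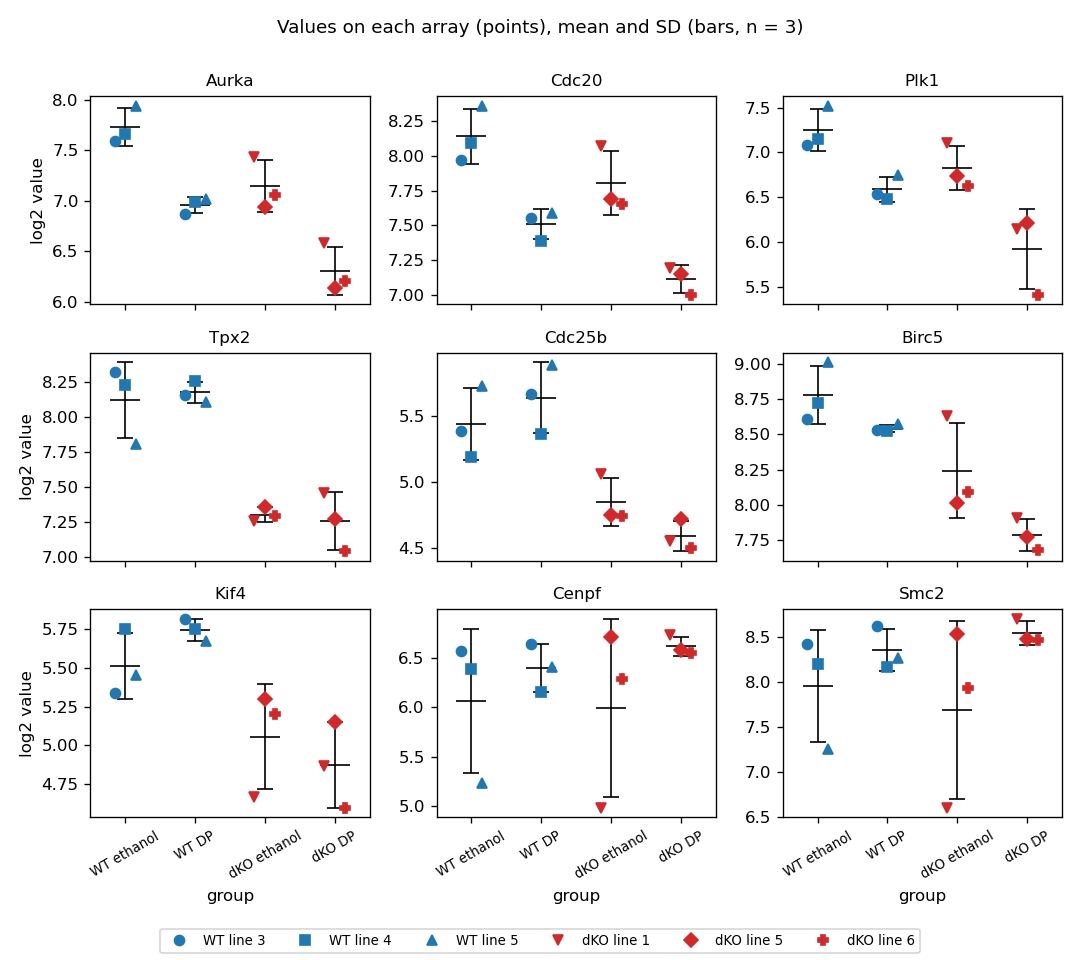
Log2 values on each array for 9 of the genes described, by group; symbols are the MEF lines, and black bars the mean and SD of 3 arrays, each panel with its own axis. Aurka, Cdc20 and Plk1 drop from ethanol to DP in both genotypes, Tpx2, Cdc25b and Kif4 are lower in dKO under DP, and Cenpf and Smc2 are low on the ethanol arrays of line 5 (wild type) and line 1 (dKO).

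Of 7 genes for entry into mitosis none passed a DP test, 3 were lower in dKO in ethanol and 4 under DP. Ccna2 encodes cyclin A2, the partner of CDK in S phase and at mitotic entry. It was 8.27, 8.63 and 8.71 on wild-type arrays with ethanol and 8.29, 8.28 and 8.46 with DP, against 8.25, 8.12 and 8.06 and 7.88, 7.85 and 7.67 on the dKO arrays. The dKO arrays lay below the wild-type arrays in both treatments, narrowly in ethanol. The difference under DP was -0.54 ± 0.12 (adjusted p = 0.00365). In ethanol it was -0.39 ± 0.12 (adjusted p = 0.0242), and the call ended without either wild-type ethanol array of line 4 or 5 or the dKO ethanol array of line 5 or 6 (0.0631 to 0.0897), without the 2 arrays that stand apart (0.0505) and in a fit of the ethanol arrays alone (0.0833). Another probe set of Ccna2 gave -0.22 ± 0.16 in each treatment (adjusted p = 0.358 and 0.332).

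Cdc25b, for a phosphatase that activates CDK1 at the centrosome, showed the largest genotype difference under DP. Its values were 5.39, 5.19 and 5.73 in wild-type ethanol and 5.67, 5.36 and 5.89 in wild-type DP arrays. On dKO arrays they were 5.06, 4.75 and 4.74 in ethanol and 4.55, 4.72 and 4.50 under DP, with no overlap between genotypes. The difference was -1.05 ± 0.16 under DP (adjusted p = 0.00022), held without any single array, and -0.58 ± 0.16 in ethanol (adjusted p = 0.0131). The ethanol call ended without the wild-type array of line 5 (0.0534) or the dKO array of line 6 (0.0536). Cdca3, a trigger of mitotic entry, was also lower in dKO in both treatments (-0.50 ± 0.16 and -0.67 ± 0.16, adjusted p = 0.0331 and 0.00636); the ethanol call ended without any of 4 arrays (0.0772 to 0.148) and in a fit of the ethanol arrays alone (0.0678). Ccnb2, for cyclin B2, was lower in dKO under DP (-0.44 ± 0.11, adjusted p = 0.00891). Cdk1, the kinase these cyclins activate, differed by 0.12 ± 0.10 and 0.14 ± 0.10, and Foxm1, a transcription factor that drives many of these genes, by 0.16 ± 0.17 and 0.05 ± 0.17, and neither passed. Cdc25c, the phosphatase that completes CDK1 activation, differed by -0.14 ± 0.13 and -0.19 ± 0.13.

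All 4 chromosomal passenger genes, whose products correct kinetochore attachments and then steer cytokinesis, were lower in dKO under DP. Birc5, for survivin, was 8.61, 8.72 and 9.01 in wild-type ethanol and 8.53, 8.52 and 8.57 in wild-type DP arrays. The dKO values were 8.63, 8.01 and 8.09 (ethanol) and 7.91, 7.77 and 7.68 (DP). The genotypes were separate under DP and overlapped in ethanol through dKO line 1. The difference was -0.75 ± 0.15 under DP (adjusted p = 0.00188) and -0.54 ± 0.15 in ethanol (adjusted p = 0.0152), the latter lost without the wild-type array of line 5 (0.0609) or the dKO array of line 5 (0.0679) or 6 (0.0678), and in a fit of the ethanol arrays alone (0.075).

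Incenp, the scaffold of the complex, was 7.33, 7.31 and 7.60 (ethanol) and 6.96, 7.13 and 7.04 (DP) on wild-type arrays, and 7.19, 6.92 and 6.96 (ethanol) and 6.75, 6.81 and 6.47 (DP) on dKO arrays. The genotypes did not overlap in either treatment. Its differences of -0.39 ± 0.12 in ethanol (adjusted p = 0.0251) and -0.37 ± 0.12 under DP (adjusted p = 0.0326) did not pass with the mean of its probe sets (-0.17 and -0.06, adjusted p = 0.174 and 0.651). The ethanol call also ended without the wild-type ethanol array of line 5 or the dKO ethanol array of line 5 or 6 (0.0873 to 0.095). It ended as well in a fit of the ethanol arrays alone (0.0664). The call under DP ended without the DP array of wild-type line 4 or 5 or of dKO line 6 (0.0741 to 0.143). With median centring it ended too (0.0749). Aurkb, for Aurora B, the kinase of the complex, differed by -0.65 ± 0.19 under DP (adjusted p = 0.0154, and -0.43 ± 0.21 with 0.15 for another probe set) and by -0.09 ± 0.19 in ethanol. Cdca8, for borealin, differed by -0.62 ± 0.18 under DP (adjusted p = 0.0182) and -0.44 ± 0.18 in ethanol (adjusted p = 0.0856). Both calls under DP ended without the DP array of wild-type line 5 or the dKO DP array of line 6 (0.0521 to 0.0873), and that of Cdca8 also without the DP array of wild-type line 3 (0.0522).

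Of 5 genes of the spindle assembly checkpoint, which delays anaphase until kinetochores are attached, Bub1b was lower in dKO and none passed a DP test. Bub1b, for the inhibitor BUBR1, was 7.03, 7.29 and 7.37 on wild-type arrays with ethanol and 6.88, 7.07 and 7.15 with DP, against 6.95, 6.71 and 6.57 and 6.59, 6.42 and 6.31 on the dKO arrays. No dKO array reached the wild-type arrays of its treatment. The difference was -0.49 ± 0.13 in ethanol (adjusted p = 0.0105, and 0.0549 without the dKO array of line 6) and -0.59 ± 0.13 under DP (adjusted p = 0.00315). Bub1, for a kinetochore kinase of the checkpoint, had the largest upward DP change in wild type, 0.73 ± 0.37 (adjusted p = 0.395), and 1.12 ± 0.37 in dKO (adjusted p = 0.205). Its ethanol values spread from 5.71 to 6.81 in wild type and from 5.04 to 6.71 in dKO, while its DP values lay between 6.58 and 7.39. Without the 2 arrays that stand apart the changes were 0.38 and 0.74. Ttk, for the kinase MPS1, changed with DP by 0.36 ± 0.26 and 0.39 ± 0.26, and by 0.11 in each genotype without them. The other 3 genes, Bub3, Mad2l1 and Ttk, differed between genotypes by -0.26 to -0.07.

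Of 6 centromere and kinetochore genes only Cenpa passed, which encodes the histone variant that marks centromeres. It was 8.33, 8.35 and 8.67 (ethanol) and 8.06, 8.08 and 8.21 (DP) on wild-type arrays, and 8.13, 7.76 and 7.69 (ethanol) and 7.65, 7.62 and 7.37 (DP) on dKO arrays. The genotypes were separate in both treatments, and so were the treatments in both genotypes. Its genotype difference was -0.59 ± 0.14 in ethanol (adjusted p = 0.0044) and -0.57 ± 0.14 under DP (adjusted p = 0.00538), both held without any single array but not with the mean of its probe sets (-0.35 and -0.34, adjusted p = 0.0552 and 0.0604). Its DP changes of -0.33 ± 0.14 and -0.31 ± 0.14 did not pass. The large kinetochore proteins Cenpe, a motor, and Cenpf had DP changes of 0.67 ± 0.33 and 0.62 ± 0.40 in dKO, and of 0.31 and 0.12 without the 2 arrays that stand apart. The NDC80 complex genes Ndc80, Spc24 and Spc25, which bind the microtubule end, had DP changes from -0.21 to 0.09 over both genotypes. Without the 2 arrays Ndc80 passed as lower in dKO in ethanol (-0.42, limma adjusted p = 0.00742), and not under DP (-0.22, 0.0538). Spc25 then passed as higher in dKO in ethanol (0.35, 0.032) and under DP (0.30, 0.0214). Spc24 did not pass.

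Of 7 genes for spindle microtubule proteins and kinesins none passed a DP test, and Tpx2 was the strongest genotype difference. Tpx2 encodes the protein that activates Aurora A and nucleates spindle microtubules. It was 8.32, 8.23 and 7.81 in wild-type ethanol and 8.16, 8.26 and 8.11 in wild-type DP arrays. The dKO values were 7.26, 7.36 and 7.29 (ethanol) and 7.46, 7.27 and 7.04 (DP), below all wild-type values. The difference was -0.82 ± 0.14 in ethanol (adjusted p = 0.000447) and -0.92 ± 0.14 under DP (adjusted p = 0.000171), and these calls held in every alternative and without any single array. The mean of its probe sets gave -0.48 in ethanol (adjusted p = 0.0109) and -0.73 under DP (0.000655). Its other probe set, of mean 6.46, gave -0.15 ± 0.14 in ethanol (adjusted p = 0.486) and -0.54 ± 0.14 under DP (0.00893). With DP the brighter set differed by 0.06 ± 0.14 in wild type and -0.05 ± 0.14 in dKO, unlike its partner Aurka, although the contrast between the genes was not tested.

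Hmmr, for a spindle-pole adaptor, was lower in dKO in ethanol (-0.54 ± 0.18, adjusted p = 0.0345), a call that ended with the mean of its probe sets (0.17), in a fit of the ethanol arrays alone (0.119) and without the wild-type array of line 3 or 4 or the dKO array of line 1 (0.121 to 0.134). Kif2c, for the microtubule-depolymerising kinesin MCAK, was lower in dKO under DP (-0.44 ± 0.15, adjusted p = 0.0364), and that call ended without any of 5 arrays (0.0516 to 0.145), without both MEF lines whose ethanol arrays stand apart (0.123) and with an intensity trend (0.0565). Kif22, for a chromokinesin that pushes chromosome arms, changed with DP by -0.69 ± 0.16 in dKO (adjusted p = 0.0509, and 0.0281 once MEF line was blocked) and by -0.20 ± 0.16 in wild type. Under DP its genotype difference was -0.42 ± 0.16 (adjusted p = 0.0561), and another probe set gave -0.64 ± 0.22 (adjusted p = 0.0449). With DP that probe set changed by -0.62 ± 0.22 in dKO and -0.46 ± 0.22 in wild type, and neither passed. Kif11, the kinesin that separates spindle poles, Aspm, a pole organiser, and Nusap1, a microtubule bundler, passed in no comparison.

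Of 8 genes of the central spindle and cytokinesis, 4 were lower and 1 higher in dKO under DP. Anln, for the contractile-ring scaffold anillin, was 8.86, 9.04 and 8.45 on wild-type arrays with ethanol and 8.98, 8.88 and 9.0 with DP, against 7.91, 8.27 and 8.15 and 8.21, 8.18 and 7.89 on the dKO arrays. No dKO array overlapped with wild type. The difference was -0.67 ± 0.15 in ethanol (adjusted p = 0.00345) and -0.86 ± 0.15 under DP (adjusted p = 0.000586), held without any single array. With the mean of its probe sets neither passed (adjusted p = 0.0984 and 0.245), and a dim probe set of mean 3.83 differed by 0.32 ± 0.23 under DP (adjusted p = 0.34).

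Kif4, for the chromokinesin that sets the length of the central spindle, lies on the X chromosome. It was 5.34, 5.75 and 5.45 (ethanol) and 5.81, 5.75 and 5.67 (DP) on wild-type arrays, and 4.67, 5.30 and 5.20 (ethanol) and 4.87, 5.15 and 4.60 (DP) on dKO arrays. No dKO array reached the wild-type arrays of its treatment, and the difference under DP was -0.87 ± 0.18 (adjusted p = 0.00185; in ethanol -0.46 ± 0.18, 0.0669). Racgap1, for the GTPase-activating subunit of centralspindlin, was 6.80, 7.12 and 7.39 on wild-type arrays with ethanol and 6.89, 6.82 and 6.87 with DP, against 6.91, 6.64 and 6.54 and 6.01, 6.37 and 6.15 on the dKO arrays. The genotypes were apart under DP and met in ethanol through dKO line 1. The difference was -0.69 ± 0.15 under DP (adjusted p = 0.00299), and in ethanol -0.40 ± 0.15 (adjusted p = 0.0559), where another probe set gave -0.62 ± 0.16 (adjusted p = 0.0087).

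Ect2, the RhoA exchange factor that centralspindlin recruits, was the gene that was higher in dKO under DP (0.56 ± 0.19, adjusted p = 0.0344). Its DP values were 6.06, 6.07 and 6.01 in wild type and 6.57, 6.65 and 6.59 in dKO, while in ethanol they overlapped. The call ended without any 1 of the 6 DP arrays (adjusted p from 0.0718 to 0.092) and after cyclic loess (0.40, adjusted p = 0.153). Kif20a, a kinesin that carries the passenger complex to the midzone, was lower in dKO under DP (-0.37 ± 0.13, adjusted p = 0.0397), lost without any of 8 arrays (0.0506 to 0.158) and with median centring (0.0881). Kif20b, a related midzone kinesin, had the largest upward difference under DP, 0.87 ± 0.40 (adjusted p = 0.118), with values of 5.90, 5.37 and 5.51 in wild type and 6.69, 6.46 and 6.25 in dKO that did not overlap. It passed without the 2 arrays that stand apart (adjusted p = 0.000687), with array weights (0.00761) and in a fit of the DP arrays alone (0.00237). Its DP change in dKO was 1.00 ± 0.40, and 0.37 without the 2 arrays. Prc1, the microtubule bundler, and Kif23, the motor of centralspindlin, did not pass.

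None of the 5 genes of chromosome structure passed in any of the 5 comparisons, and the median of their DP changes was 0.35 in wild type and 0.49 in dKO, values that rest on the 2 arrays that stand apart. Smc2, a core subunit of the condensin complexes that compact chromosomes, had the largest change in dKO. It was 8.42, 8.20 and 7.25 in wild-type ethanol and 8.62, 8.17 and 8.27 in wild-type DP arrays. In dKO it was 6.60, 8.53 and 7.93 in ethanol and 8.70, 8.48 and 8.46 under DP. The lowest values were those of the 2 arrays that stand apart, and the remaining 10 arrays lay between 7.93 and 8.70. Its DP change was 0.40 ± 0.40 in wild type and 0.86 ± 0.40 in dKO (adjusted p = 0.729 and 0.359), and 0.04 and 0.31 without those arrays. Smc4, its partner, and the condensin I subunit Ncapg changed in dKO by 0.63 ± 0.29 and 0.49 ± 0.24, Ncaph, the subunit that closes the ring, by -0.23 ± 0.11, and the topoisomerase gene Top2a by 0.18 ± 0.18. Without the 2 arrays the dKO changes of Smc4, Ncapg and Top2a were 0.21, 0.20 and -0.04. Top2a and Ncapg then passed as lower in dKO under DP (-0.26 and -0.33, adjusted p = 0.0237 and 0.044).

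On the 2 ethanol arrays that stand apart, mitosis genes split by gene rather than moving together. The 18 genes at least 0.25 lower on both were Bub1, Mad2l1, Ttk, Cenpe, Cenpf, Ndc80, Spc25, Aspm, Hmmr, Nusap1, Kif20b, Kif23, Ect2, Anln, Top2a, Smc2, Smc4 and Ncapg. Aspm deviated by -1.45 on wild-type line 5 and -1.49 on dKO line 1, Cenpf by -1.24 and -1.52, and Smc2 by -1.06 and -1.63. The 13 at least 0.25 higher on both were Cdc25b, Aurka, Plk1, Cdc20, Aurkb, Birc5, Incenp, Cdca8, Cenpa, Spc24, Kif22, Kif2c and Racgap1. Aurka was higher by 0.32 and 0.42, Plk1 by 0.41 and 0.41 and Spc24 by 0.58 and 0.75. These groups of genes were picked by their values on these arrays, so their separation is a description.

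The lower genes tended to be the longer ones. The genomic span from RefSeq, known for all 48, had a median of 31972.5 bp in the 18 lower genes and of 12076 bp in the 13 higher ones. Across the 48 genes, span and deviation had a Spearman rho of -0.66 on the wild-type array and -0.69 on the dKO array, against -0.20 on each over 17055 genes with a span. The deviations of the 2 arrays followed each other with a rho of 0.90 over the 48 genes and 0.58 over the 17055. Over the 8917 genes with a mean of at least 5, their deviations from the group means had a Pearson correlation of 0.844. The agreement of the 2 arrays was thus not particular to mitosis genes. The points of each correlation come from single arrays and share their probes, so these are descriptions and genes are not replicates. Mad2l1, with a span of 5887 bp, was among the lower genes, and Racgap1, with 31161 bp, among the higher. Kif4, the longest with 101207 bp, deviated by -0.09 on the wild-type array and -0.58 on the dKO array. Bub1b, with 43391 bp, was higher on both (0.21 and 0.31). TTTGAA was found in 13 of 17 start regions of the lower genes (76.5%) and 8 of 10 of the higher genes (80.0%).

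**Figure D5:**
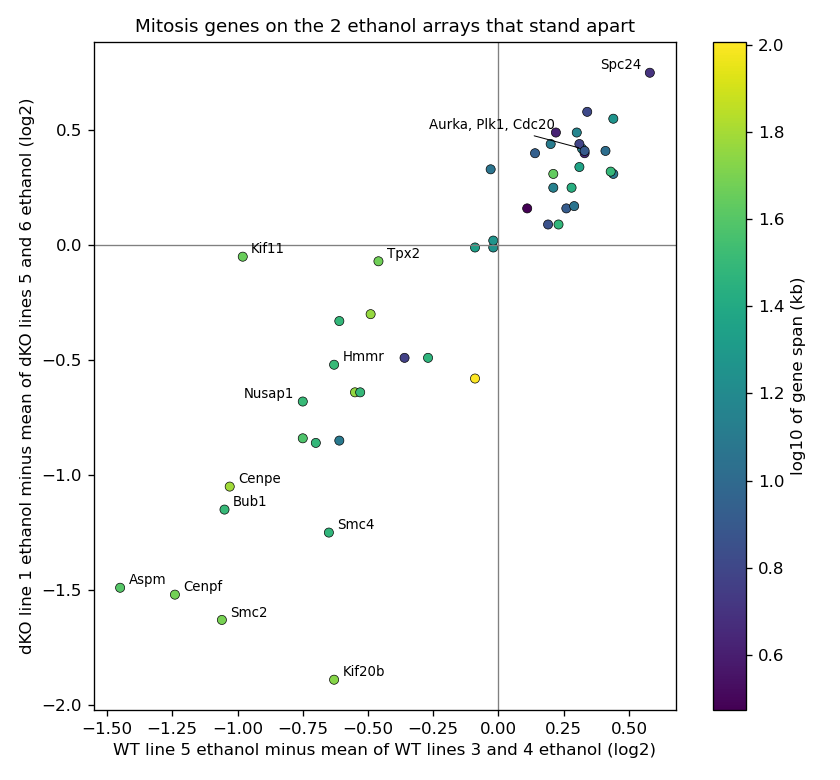
Deviation of the wild-type line 5 ethanol array (x axis) and the dKO line 1 ethanol array (y axis) from the other ethanol arrays of the same genotype, in log2, for the 48 genes; colour is the log10 of the gene's span in kb. The genes run along the diagonal from Aspm, Cenpf, Smc2 and Kif20b at the lower left, with long spans, to Spc24 at the upper right.

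Other genes of the cell cycle were read for comparison. Of 110 other mitosis genes 4 fell with DP in wild type, namely Fam83d, a spindle protein gene (-0.76 ± 0.13), the centromere gene Cenpl (-0.66 ± 0.13), the repressor gene E2f8 (-0.66 ± 0.13) and Wee1, for the kinase that inhibits CDK1 (-0.37 ± 0.09). In dKO only Fam83d fell (-0.63 ± 0.13, adjusted p = 0.032). Between genotypes the list went both ways, with 15 higher and 13 lower in ethanol and 15 higher and 20 lower under DP, and medians of -0.05 and -0.02. Lin52, a subunit gene of DREAM and B-MYB complexes, was higher in dKO by 1.18 ± 0.09 in ethanol and 1.16 ± 0.09 under DP. Mki67, the proliferation marker Ki-67, passed in no comparison, with genotype differences of -0.52 ± 0.39 and -0.14 ± 0.39.

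Of 48 genes of DNA replication and S phase only Ccne2, for cyclin E2, passed a DP test, rising by 1.68 ± 0.20 in wild type and 1.51 ± 0.20 in dKO. In ethanol 7 were higher and 7 lower in dKO, and under DP 3 were higher and 11 lower. Of 16 CDK inhibitors and G1 cyclins, Cdkn1b, for the inhibitor p27, rose with DP in wild type by 1.26 ± 0.09 (adjusted p = 2.33e-06) and changed by 0.31 ± 0.09 in dKO (adjusted p = 0.157). It was the 1 gene of the list whose response differed between genotypes (-0.94 ± 0.13, adjusted p = 0.00446). Ccnd1, for cyclin D1, was lower in dKO, with differences of -2.26 ± 0.12 in ethanol and -2.36 ± 0.12 under DP.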

How the data were processed

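The authors deposited log2 values for 45141 probe sets on each of 12 arrays, made by RMA; the submitters' processing notes name Affymetrix Expression Console 1.1. RMA sets all arrays to 1 distribution, so a shift of all genes cannot be seen. Of these probe sets 28898 had 1 gene symbol, 551 several and 15588 none; the brightest set per gene left 17097 genes. limma 3.58.1 in R 4.3.3 fitted the 4 groups of 3 arrays together, and p-values were adjusted over all genes (Benjamini-Hochberg, 0.05). The same numbered MEF line received both treatments, per the labels, so ethanol and DP arrays are paired; the correlation of their deviations from the group means ran from 0.0442 to 0.425 over 8917 genes. The code was checked on simulated data.

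Alternatives were the line as a block, an intensity trend, array weights (genebygene), median centring, cyclic loess, a filter that dropped the dimmest 40%, averaged probe sets per gene, only the arrays compared, leaving out the 2 deviating arrays or their lines, and leaving out each array. Genes with a call (up to 10 per comparison by smallest p), and the gene of largest change in a role with none, are given on every array; other genes were named after their values were seen. The members, roles and lists were chosen with earlier results of these data known. Ccnb1 and Nuf2 are not analysed here. Python 3.11.15 and matplotlib 3.10.9 were used for tables and plots.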

Additional observations from a re-analysis of the deposited data

How the results depend on the processing

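No gene that passed a comparison changed sign in it under any alternative run. Among those that did not pass, 14 of 46 changed sign in at least 1 alternative for DP in wild type, 13 of 45 for DP in dKO, 15 of 36 and 5 of 27 for genotype in ethanol and under DP, and 29 of 48 for the difference of the DP responses. In wild type 2 genes passed the DP test (4.73% of all genes), and 5 with array weights (6.98%). The count was 4 each with median centring (4.4% of all genes), without the dimmest 40% of genes (8.08%) and with only the arrays compared (4.14%). It was also 4 without the 2 deviating ethanol arrays (6.21%). Leaving out 1 array gave 1 to 4, with 3.15% to 5.91% of all genes. In dKO 3 passed (1.5% of all genes), and 5 with array weights (2.85%). The count was 0 with only the arrays compared (0.831% of all genes), where the spread rests on 6 arrays. Leaving out 1 array gave 0 to 5, with 0.895% to 1.91% of all genes. Between genotypes in ethanol 12 passed (33.6% of all genes). The count was 22 with cyclic loess (31.9%) and 7 with only the arrays compared (25.7%). Leaving out 1 array gave 6 to 17, with 27.6% to 36.1% of all genes. Under DP 21 passed (35.4% of all genes), and leaving out 1 array gave 13 to 23, with 29.2% to 38.9% of all genes. The difference of the DP responses gave 0 genes in each alternative run and with each array left out (0.339% to 0.926% of all genes).

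With the MEF line as a replicate block 3 genes passed the DP test in wild type (4.72% of all genes), where Plk1 was added. In dKO 4 passed (1.56% of all genes), where Kif22 was added. The block changed no other call of the 48 genes. Between genotypes 12 passed in ethanol (33.5% of all genes) and 21 under DP (35.4%), and 0 passed for the difference (0.521%). Genotype is fixed within a line, so there the block was random, with a consensus correlation of 0.095. The 3 arrays per group limit the precision. All 48 genes exceeded the 95th percentile of the blank controls on 12 arrays, with the brightest probe set of each. The dimmest lay near it, with a mean of 4.17 for Kif23 against 3.28 to 3.53. Of 47 other probe sets of these genes, 30 had a mean above the blank controls. The effect of low signal on the changes was not tested.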
